A study of Mus musculus with 6 samples.

Results

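Counts filed under genes of the cellular stress response were followed in C2C12 cells, a mouse myoblast line, after treatment with a screening compound. Of 22753 genes in the table, 10 were members: 9 found by symbol (Atf4, Atf5, Ddit3, Trib3, Cebpb, Fosl1 and the neighbours Il4i1, Nup62 and Ccdc85b), and Tmem189, taken because its interval overlaps that of Cebpb. The compound group was 3 libraries of cells kept for 2 days in 10 µM of the compound, a quinolinone bearing 2 methyl groups and a phenyl-substituted imidazole, labelled ru226. The control group was 3 libraries kept as long in 1% DMSO, the solvent, and cells of both groups grew in DMEM with 10% fetal bovine serum. The DMSO percentage of the compound group is not in the labels. All libraries come from this 1 line. Whether each was grown apart is not in the labels, so the p-values rest on the spread among these 6 libraries, which may be technical only.

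ATF4, ATF5, CHOP (the product of Ddit3), C/EBP beta and FRA-1 (the product of Fosl1) are basic leucine zipper factors, which bind DNA as pairs and share partners. In the integrated stress response, phosphorylation of the initiation factor eIF2 slows most translation but raises that of ATF4 and ATF5, and ATF4 then switches on Ddit3, Trib3 and genes of amino acid supply. FRA-1 pairs with JUN proteins as AP-1, the factor that answers growth signals and stress. In muscle precursors C/EBP beta is known to hold back differentiation.

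The table held 493406 to 542649 counts per library in the compound group and 566348 to 952813 in DMSO, where replicate 3 was the deepest and lay farther from its fellows (chi-square per degree of freedom of 10.5 and 9.61, against 1.88 between DMSO replicates 1 and 2). The strand setting of the counting is not given in the sources used here. Actb, which most cells express strongly, had only 2 to 13 counts per library. The mitochondrial genes mt-Atp6, mt-Co2 and mt-Co3 stood at 0, whereas mt-Nd6, on the other mitochondrial strand, had 26553 to 57919. Values below are therefore counts filed under a gene name, and whether they are reads of that gene or of its opposite-strand neighbour was not tested. Muscle markers were sparse. In counts not scaled to library size, Myod1 had 2 to 3 with the compound and 6 to 25 in DMSO, and Myog 0 to 1 and 2 to 7. Myf5 had 0 to 3 in both groups, and Ckm 0 to 3 with the compound and 1 to 4 in DMSO. All of these had too few counts to test. The intermediate filament gene Des had 49 to 67 and 31 to 57. In edgeR Des rose (log2 change 0.99, adjusted p = 0.0160) and the myogenic repressor gene Msc fell (-1.21, 0.0467). Msc reached the filter level, described below with Fosl1, in 2 compound and 3 DMSO libraries. DMSO, where Msc was higher, thus let it into the test. The other tested muscle markers were Myh3 (0.31, adjusted p = 0.640 by edgeR) and Pax7 (-0.27, 0.701). Annotated exons of Gm15179 lie opposite Des, and those of Gm9947 opposite Msc. The part of such shifts in the members' values was not tested. Summed counts of the adipocyte markers were 0 to 2 in both groups, with Plin1 at 0 throughout, and those of the endothelial markers 2 and 0 to 3. The macrophage markers summed to 177 to 251 with the compound and 282 to 636 in DMSO, not scaled to library size. Nearly all of it was Csf1r, which Hmgxb3 overlaps. Cd68 had 3 to 11 and 5 to 11 counts, and Ptprc 0 and 0 to 1. Scaled, Csf1r had overlapping groups, at 389.5 to 514.5 CPM with the compound and 461.6 to 599.1 CPM in DMSO. It did not pass by edgeR (log2 change -0.19, adjusted p = 0.514). Of the osteoblast markers Runx2 had 20 to 26 and 21 to 57 counts, and Sp7, Bglap and Ibsp had 0. Runx2 did not pass either (0.01, adjusted p = 0.986 by edgeR). In bulk RNA, fewer cells of a type and less RNA per cell cannot be told apart.

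The stretches below show a start of Atf5, the 1 whose first exon meets Nup62 and Il4i1, the start of Ddit3 and where Cebpb meets Tmem189. Promoters run from 250 bases before to 50 bases after the start site, are from RefSeq (GRCm38.p6) and are given 5′ to 3′ on the gene's strand. Entries were found for 8 of the 10 members, and Fosl1 and Tmem189 had none. The Atf5 promoter shown is chr7:44816609-44816908 on the minus strand, and a second Atf5 entry at chr7:44815609-44815908 is not printed. The promoter of Ddit3 is chr10:127290543-127290842 on the plus strand. The shared stretch is chr2:167689703-167689822 (mm10, plus strand), read from the single-exon Cebpb transcript of GENCODE M21. It covers 40 codons of Cebpb from codon 228, coding for the DNA-binding basic region and part of the leucine zipper, and is at the same time exon sequence of Tmem189 on the other strand. Capitals mark an AP-1 match.
Atf5 promoter: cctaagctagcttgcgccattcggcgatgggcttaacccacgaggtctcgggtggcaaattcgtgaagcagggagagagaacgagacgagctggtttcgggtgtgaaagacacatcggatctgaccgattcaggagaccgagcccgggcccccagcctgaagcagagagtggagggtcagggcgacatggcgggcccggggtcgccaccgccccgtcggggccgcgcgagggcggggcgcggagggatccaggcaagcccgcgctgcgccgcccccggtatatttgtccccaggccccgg
Ddit3 promoter: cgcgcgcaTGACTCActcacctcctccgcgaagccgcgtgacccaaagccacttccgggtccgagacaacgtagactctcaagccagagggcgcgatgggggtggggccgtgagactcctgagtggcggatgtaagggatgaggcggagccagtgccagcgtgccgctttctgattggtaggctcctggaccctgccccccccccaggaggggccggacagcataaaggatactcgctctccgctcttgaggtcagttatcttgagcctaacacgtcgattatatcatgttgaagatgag
Cebpb and Tmem189 shared stretch: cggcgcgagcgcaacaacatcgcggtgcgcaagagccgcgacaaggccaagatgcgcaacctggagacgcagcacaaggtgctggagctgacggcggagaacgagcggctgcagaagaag

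These promoters were searched on both strands for TGATGNAA (the C/EBP-ATF response element), TGANTCA (AP-1), TTGCNNAA (C/EBP) and TGACGTCA (the cyclic AMP response element). Over 32851 mouse promoters of the same length, 3.97% held the first, 7.81% the second, 10.8% the third and 1.79% the fourth. This background leaves out the promoters of a whole chromosome, on which no member lies. Ddit3 had an AP-1 match that begins 242 bases before its start site. Trib3 had a C/EBP-ATF match starting 14 bases after its start site, and Ccdc85b a C/EBP match 38 bases before. No match lay in those of Atf4, Cebpb, Nup62 and Il4i1 or in either entry of Atf5. The Il4i1 entry, chr7:44836038-44836337, is not at the first exon that meets Atf5, so that start of Il4i1 was not searched as its promoter. No 2 matches overlapped in the members' promoters. A match is a description of letters and not a site.

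Of the 10 members, 5 had enough counts to test. Counts filed under Atf5, Fosl1 and Tmem189 fell with the compound, by 2.17-fold, 3.01-fold and 2.19-fold, and those under Ddit3 and Il4i1 did not pass. Calls here mean an adjusted p under 0.05 in the quasi-likelihood test of edgeR. Over all 2440 genes tested, 10.5% were called lower and 7.50% higher, and the members were chosen with these results known. Each tested member had a log2 change under 0, with a median of -1.12 beside 0.02 over all genes tested. The 5 include Fosl1, which passed the filter through DMSO, where it was higher. This median and the values that follow describe the chosen genes only. Compound libraries lay under every DMSO library for 4 of the tested members (Atf5, Ddit3, Fosl1 and Tmem189), a pattern shown by 19.2% of all genes tested. Summed over the members, counts made up 0.0701%, 0.0803% and 0.0759% of the compound libraries and 0.140%, 0.133% and 0.177% of the DMSO libraries.

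**Figure D1:**
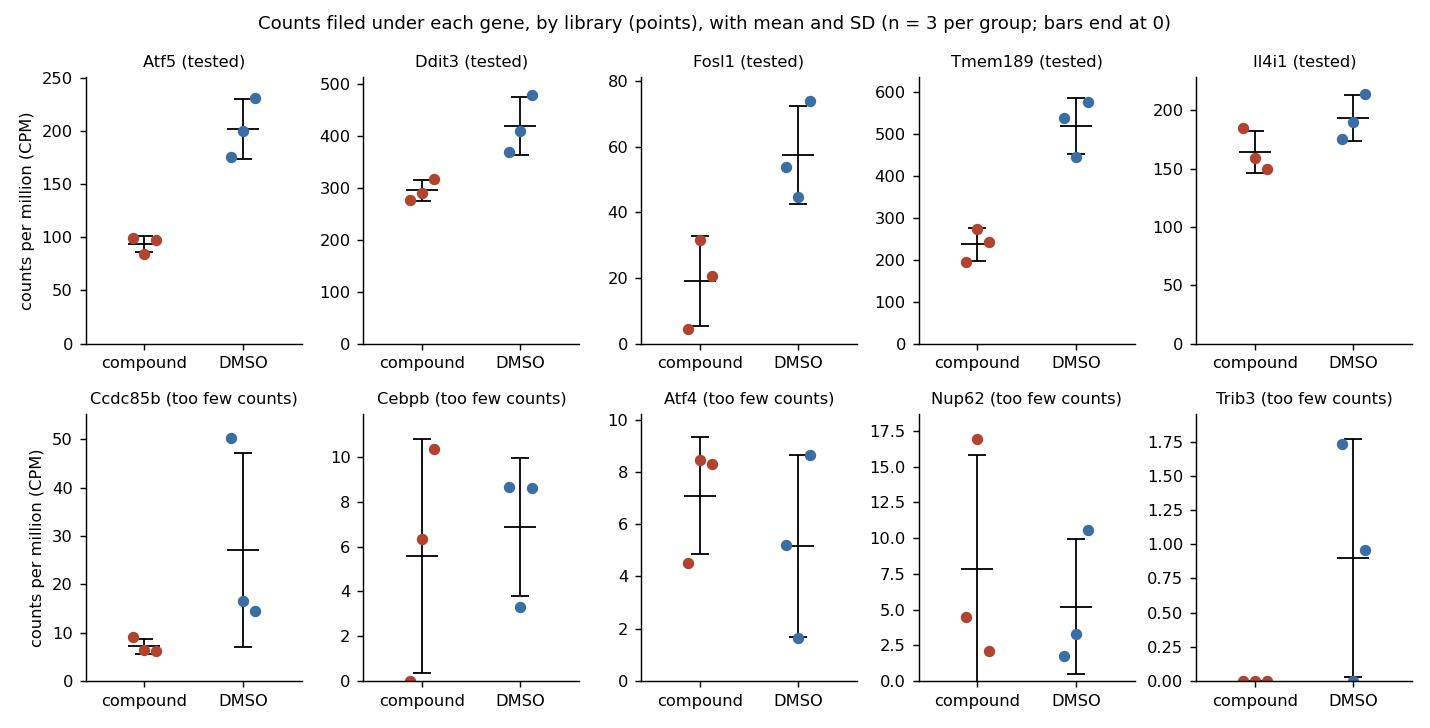
Counts scaled to library size (CPM, vertical axis from 0, a scale for each gene) filed under the 10 members in the 3 compound and 3 DMSO libraries (points), with the mean and SD. For Atf5, Ddit3, Fosl1, Tmem189 and Ccdc85b each compound point lies under each DMSO point, while the groups overlap for the other members.

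Atf5 encodes a factor that also drives the mitochondrial unfolded protein response. It lies on chromosome 7, 44812257 to 44816658 in the table, on the minus strand. Its counts were 44, 40 and 47 in compound replicates 1 to 3 and 101, 121 and 241 in DMSO replicates 1 to 3. Scaled to library size these were 99.1, 84.6 and 97.5 CPM with the compound and 175, 200 and 231 CPM in DMSO, so the groups stood well apart and DMSO varied the more. By edgeR the log2 change was -1.12 ± 0.22 (SE) with an adjusted p of 0.00217, and it kept its call under all alternatives run (-1.24 to -1.01). The authors' deposited table gives Atf5 a log2 change of -1.11 with an adjusted p of 4.89e-07.

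The first exon of Atf5 shares 82 bp, from 44816402 to 44816483, with the first exons of Nup62 and Il4i1 on the plus strand, all outside coding sequence. Nup62 encodes a nucleoporin of the central channel of the nuclear pore, and its counts were 2, 8 and 1 with the compound and 1, 2 and 11 in DMSO, too few to test. Il4i1 encodes a secreted L-amino acid oxidase best known from immune cells. It had 184.6, 158.7 and 149.4 CPM with the compound, against 175.2, 190.3 and 214.1 CPM in DMSO, with overlapping groups. By edgeR its log2 change was -0.24 (95% interval -0.66 to 0.18), with an adjusted p of 0.448. Of the annotated exon bases of Il4i1, 85.9% have exons on the other strand, 3423 bp of them from Tbc1d17, which had 1 to 8 counts with the compound and 2 to 11 in DMSO. In the table's own intervals Tbc1d17 and Il4i1 do not overlap. The log2 ratio of Atf5 to Il4i1 counts, in which library scaling cancels, was -0.89, -0.90 and -0.61 with the compound and 0.00, 0.07 and 0.11 in DMSO, without overlap. The difference of the means was -0.86, and an exact two-sided permutation test gave p = 0.1, the smallest that 3 against 3 allows (0.3 adjusted over 3 ratios). The log2 ratio of Atf5 to Nup62 counts was 3.80 ± 1.40 with the compound and 5.36 ± 0.87 in DMSO (SD, n = 3, exact permutation p = 0.2, 0.3 adjusted), a ratio that rests on very few Nup62 counts.

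Ddit3 encodes CHOP, which pairs with C/EBP proteins and promotes cell death under lasting stress. It had 123, 137 and 153 counts in compound replicates 1 to 3 and 212, 247 and 498 in DMSO replicates 1 to 3. These were 277, 290 and 317 CPM with the compound and 368, 409 and 478 CPM in DMSO, without overlap. Its adjusted p by edgeR was 0.0570, just outside the threshold, for a log2 change of -0.51 ± 0.17 (SE) with a 95% interval of -0.88 to -0.14. The call was gained without DMSO replicate 1 (0.0486), without DMSO replicate 3 (0.0418) and when tested among genes averaging 50 counts or more (0.0462). The other alternatives left Ddit3 uncalled, with an adjusted p of up to 0.191 by edgeR, without compound replicate 1. DESeq2 run here gave 0.0847, whereas the authors' deposited table, from the same libraries, lists Ddit3 with an adjusted p of 0.00620. The last exon of Ddit3 (chromosome 10, 127290774 to 127296288) overlaps 68 bp of the last exon of Mars, the methionyl-tRNA synthetase gene, which points the other way. In GENCODE M21, Gm4189 also shares 13 bp with Ddit3 from the opposite strand. A second gene entry named Ddit3 shares 105 bp on the same strand, and neither entry has counts here. Mars had 87.8, 93.1 and 78.8 CPM with the compound, against 156.1, 130.7 and 86.4 CPM in DMSO, where replicate 3 fell among the compound libraries. By edgeR it changed by a log2 of -0.50 ± 0.26 (SE) with an adjusted p of 0.211, and without DMSO replicate 3 the value was -0.73 with an adjusted p of 0.0199. The log2 ratio of Ddit3 to Mars counts, chosen after the overlap was seen and not tested, was 1.76 ± 0.21 with the compound and 1.78 ± 0.63 in DMSO (SD, n = 3).

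Atf4, the central factor of the integrated stress response, and Trib3, a pseudokinase that ATF4 induces and that binds it in turn, had too few counts to test, and neither has an annotated exon opposite its own. Atf4 (chromosome 15, 80255184 to 80257540) had 2, 4 and 4 counts with the compound and 3, 1 and 9 in DMSO, with overlapping CPM. Trib3 (chromosome 2, 152337422 to 152344032) had 0 counts in all 3 compound libraries and 1, 0 and 1 in DMSO. Each 0 leaves room for as many as 3 counts, which is 6.22 to 6.75 CPM in the compound libraries, counting error only. No direction can be read from either name.

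Cebpb is a single exon on the plus strand of chromosome 2 (167688915 to 167690418). It had 0, 3 and 5 counts with the compound and 5, 2 and 9 in DMSO, too few to test. Tmem189 encodes the desaturase that makes plasmalogens, and its first exon in 1 transcript lies on the minus strand across 312 bp of Cebpb, 167689511 to 167689822, all of it coding sequence of Cebpb. Counts filed under Tmem189 were 87, 129 and 117 with the compound and 310, 270 and 600 in DMSO, many times those under Cebpb in each library. Scaled, they were 195.9, 272.9 and 242.7 CPM with the compound, against 537.6, 446.8 and 576.0 CPM in DMSO, so that the highest compound library lay far under the lowest DMSO library. Tmem189 fell by 1.13 ± 0.19 on the log2 scale (SE) with an adjusted p of 0.000667 by edgeR. The call held under all alternatives run (-1.26 to -1.004), and in the authors' deposited table it is -1.12 with an adjusted p of 1.95e-08. The rest of Tmem189 shares 694 bp with Gm20431 on its own strand, which had 0 counts in each library. Whether reads in these shared bases were counted for either gene was not tested.

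**Figure D2:**
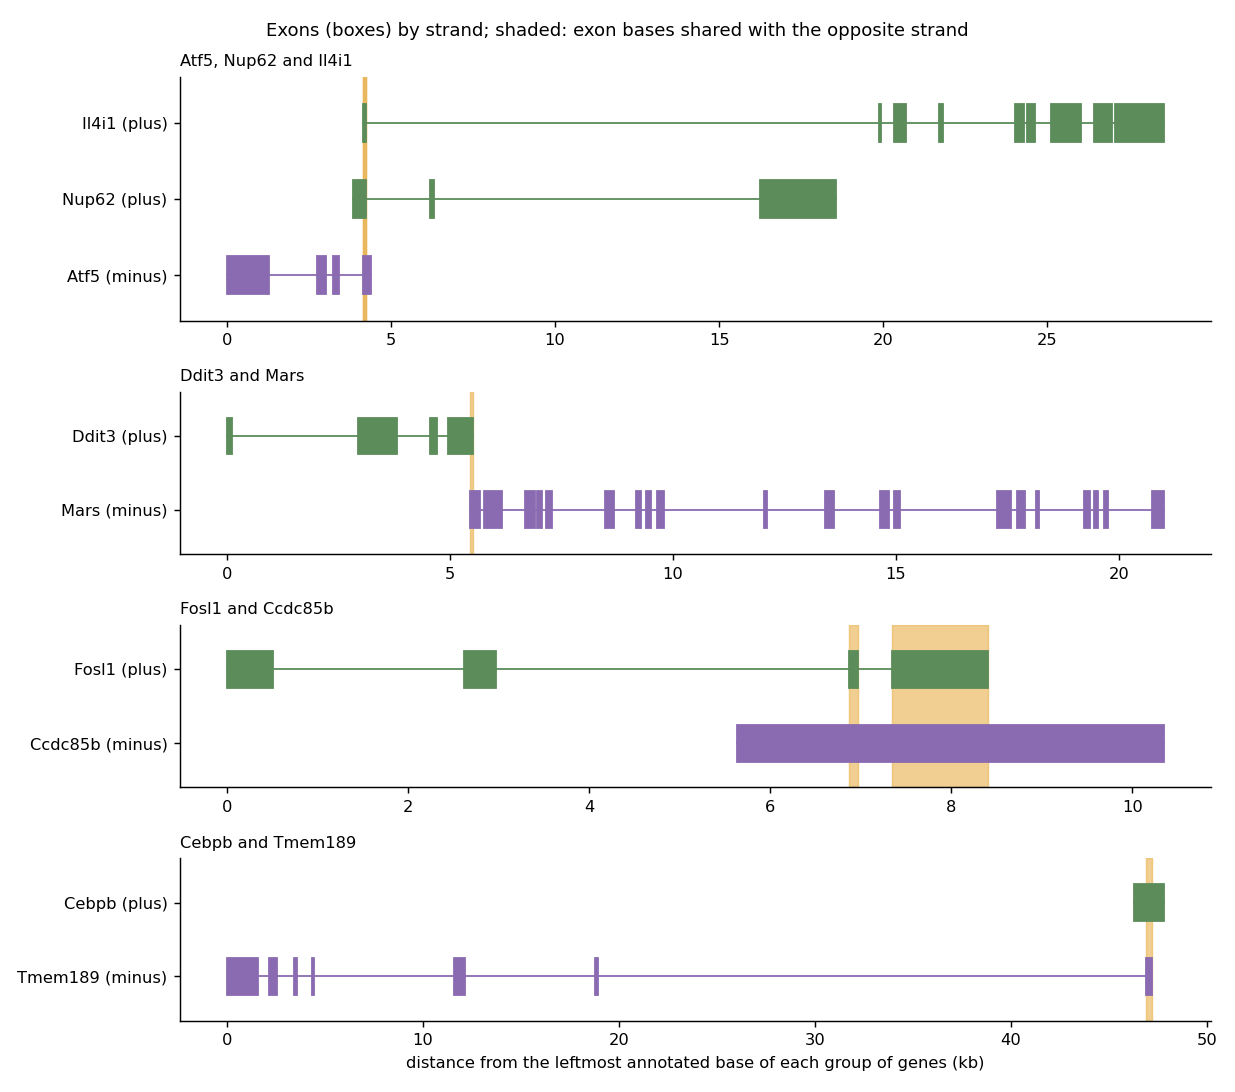
Exons of the members and of Mars in GENCODE M21 (boxes) by strand, with distance from the leftmost annotated base in kb on the horizontal axis; shading marks exon bases shared with the opposite strand, and Tbc1d17 is not drawn. The shared part is 82 bp for Atf5, 68 bp for Ddit3 with Mars, 312 bp for Cebpb with Tmem189 and 1163 bp for Fosl1 with Ccdc85b.

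Fosl1 (chromosome 19, 5447703 to 5455945, plus strand) had 2, 15 and 10 counts in compound replicates 1 to 3 and 31, 27 and 77 in DMSO replicates 1 to 3. The CPM were 4.50, 31.7 and 20.7 with the compound and 53.8, 44.7 and 73.9 in DMSO, without overlap, although the compound libraries were widely spread, with replicate 1 the lowest by far. The adjusted p by edgeR was 0.0284 for a log2 change of -1.59 ± 0.47 (SE), and in the authors' deposited table -1.30 with an adjusted p of 0.0413. Fosl1 reached the filter level, 18 CPM of the library total in at least 3 libraries, in 2 compound and 3 DMSO libraries, so DMSO, where it was higher, let it into the test. The call was lost without compound replicate 1 (-1.14, adjusted p = 0.0992) and without compound replicate 3 (-1.66, 0.0751). Ccdc85b, which encodes a small coiled-coil protein, had 4, 3 and 3 counts with the compound and 29, 10 and 15 in DMSO, or 9.01, 6.35 and 6.22 CPM against 50.3, 16.6 and 14.4 CPM. The groups did not overlap, and the filter left it untested because only 1 library, DMSO replicate 1, reached that level. With no filter its log2 change was -1.94 with an adjusted p of 0.0611 in edgeR. Under GENCODE M21 the Ccdc85b exon of 4715 bp covers 57.2% of the exon bases of Fosl1 from the opposite strand, but the interval the table gives for Ccdc85b, 5456789 to 5457397, begins past the end of Fosl1. The log2 ratio of Fosl1 to Ccdc85b counts was 0.96 ± 1.59 with the compound and 1.27 ± 1.12 in DMSO (SD, n = 3, exact permutation p = 0.8, 0.8 adjusted). The difference of the means, -0.31, turned to 0.60 without compound replicate 1 and to 0.22 without DMSO replicate 3, so it gave no direction.

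Per kb of annotated exon, the level was highest under Ddit3, 172 CPM per kb with the compound and 244 in DMSO. Next came Tmem189 with 72.6 CPM per kb with the compound and 159 in DMSO, Atf5 with 47.0 and 101.5, and Il4i1 with 40.3 and 47.4. Fosl1 stood at 9.34 CPM per kb with the compound and 28.3 in DMSO. The other members were under 6 CPM per kb in both groups. These levels take all annotated exons of a gene as its length, which overstates it for genes with several transcripts. They also take the counts as reads of the named gene, and whether they are was not tested.

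**Figure D3:**
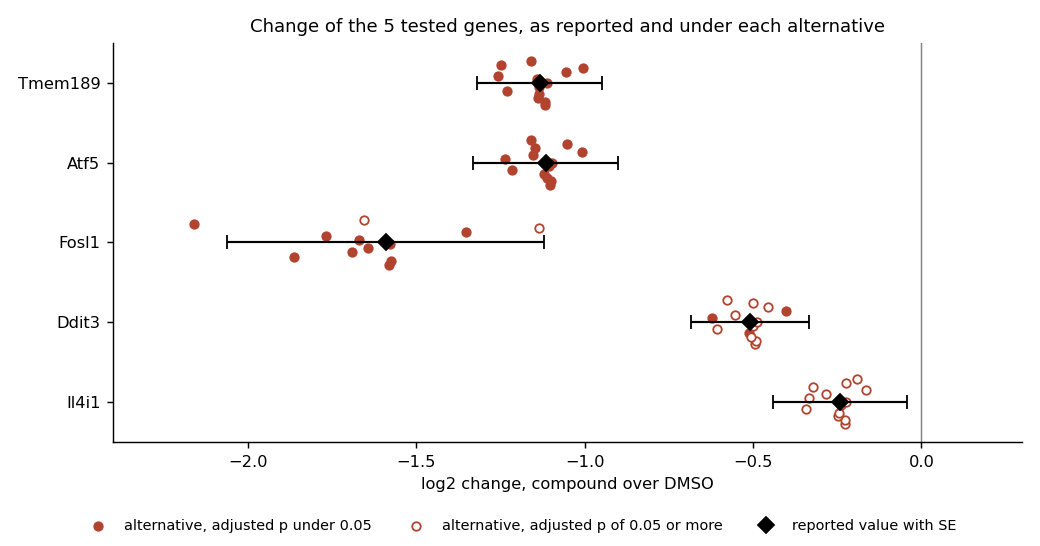
Log2 change of counts, compound over DMSO (horizontal axis), for the 5 tested members: the reported value with its SE (diamond) and the value under each alternative (circles, filled where the adjusted p was under 0.05). All values lie under 0, and those of Fosl1 spread the most, -2.16 to -1.14.

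Partners and targets of these factors were read from 13 lists holding 193 genes of the table besides the members, of which 43 were tested. Of these, 2 rose and 3 fell, where 7.50% and 10.5% of all tested genes did, with a median log2 change of -0.10 beside 0.02 over all. Of 39 ATF4 target genes 7 were tested: the cystine importer gene Slc7a11 rose 1.65-fold (adjusted p = 0.0225 by edgeR) and the glycine transporter gene Slc6a9 fell 1.85-fold (0.0239). Slc7a11 had 3951, 3810 and 3730 CPM with the compound and 2827, 2763 and 1400 CPM in DMSO, where replicate 3 was lowest. No annotated exon lies opposite it, and its log2 change was 0.72 ± 0.20 (SE), or 0.45 without DMSO replicate 3. The call was lost without compound replicate 1, 2 or 3 in turn (adjusted p 0.0729 to 0.112). Slc6a9, overlapped by Ccdc24 and B4galt2, averaged 76.3 ± 16.1 CPM with the compound and 140 ± 28.4 CPM in DMSO (SD, n = 3), and its call was lost without compound replicate 1 (0.0884) or 2 (0.114). The autophagy receptor gene Sqstm1 had an adjusted p of 0.0835 by edgeR for a log2 change of -0.58, and without DMSO replicate 3 it passed (-0.77, 0.00101).

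Among the FOS and JUN family, 3 of 10 were tested, and Batf2, a factor that pairs with JUN proteins, rose 1.83-fold. Its CPM were 817 ± 41.2 with the compound and 448 ± 88.9 in DMSO (SD, n = 3), with an adjusted p of 0.00271 in edgeR and a call kept under all alternatives run. Its exons are overlapped by Arl2. Jund, the JUN member with the most counts, did not pass, at a log2 change of -0.55 ± 0.25 (SE) and an adjusted p of 0.159. Of AP-1 target genes 3 of 18 were tested and Dusp1, a phosphatase of stress kinases, was called lower, by 2.94-fold. It had 4, 3 and 7 counts with the compound and 18, 11 and 40 in DMSO. It reached the filter level in 0 compound and 3 DMSO libraries, so it was tested only through the group where it was higher. Its adjusted p by edgeR was 0.0465, was 0.0829 with no filter and missed the threshold under most alternatives (up to 0.154). Of 22 nucleoporins 5 were tested and Nup214 fell 2.92-fold, to 13.4 ± 6.37 CPM with the compound, against 40.3 ± 5.19 CPM in DMSO (SD, n = 3), with an adjusted p of 0.0242 by edgeR. That call was lost without compound replicate 1 or 2 or DMSO replicate 1 or 2 (0.0516 to 0.0942), and Nup214 reached the filter level in 1 compound and 3 DMSO libraries. Nup133 and Nup85, the tested nucleoporins with most counts, did not pass and lay on either side of 0 (log2 changes -0.82 and 0.69), and the median of the list was 0.18. Without DMSO replicate 3 Nup85 passed (1.25, adjusted p = 0.0485 by edgeR) and Nup133 stood at -0.40.

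None of the tested members of the other lists passed, at 3 aminoacyl-tRNA synthetases, 3 of the eIF2 kinases and eIF2 factors, 7 genes of the endoplasmic reticulum stress response, 5 of the mitochondrial unfolded protein response, 3 ATF and CREB factors, 2 C/EBP factors, 4 MAF and NRF factors and 1 C/EBP beta target. Log2 changes of those with the most counts were 0.30 for the heme-regulated eIF2 kinase Eif2ak1, -0.08 for Eif2b4, -0.29 for Manf, -0.08 for Hsp90b1, -0.09 for Htra2, -0.10 for Dnaja3, -0.27 for Creb3, -0.74 for Creb1, 0.56 for Cebpz, -0.51 for Cebpg, 0.04 for Maff, 0.21 for Nfe2l3, 0.47 for Yars and -0.27 for Pax7. Those of Ccnd1 and Vegfa, AP-1 targets, were -0.34 and -0.45. Of 21 uncalled genes named from the lists, 18 moved by more than 1.5 times or changed sign with 1 library left out. Without DMSO replicate 3, Eif2ak1 stood at 0.0459, Cebpz at 0.22 and Creb3 at -0.0304, and without compound replicate 1 Ccnd1 stood at -0.0117. Both further Tribbles genes, Trib1 and Trib2, had mean counts under 1.

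**Figure D4:**
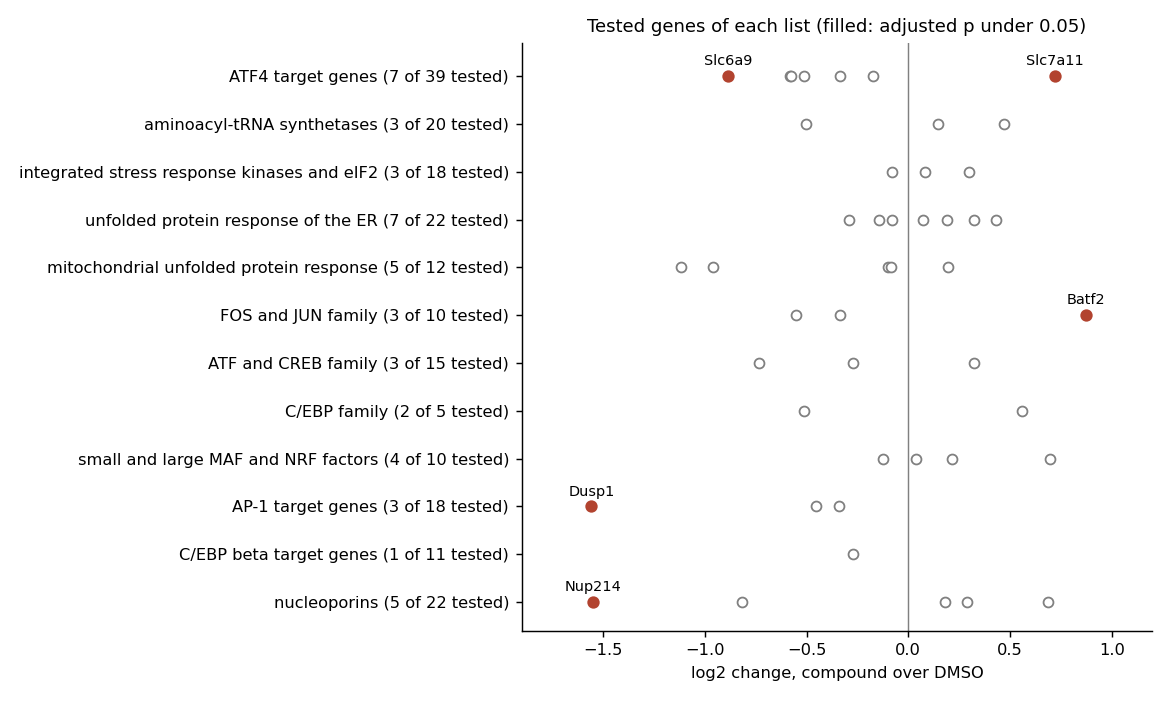
Log2 change of counts, compound over DMSO, for the tested genes of each list (points, filled and named where the adjusted p was under 0.05). Only Slc6a9, Slc7a11, Batf2, Dusp1 and Nup214 are filled, of 43 genes tested.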

How the data were processed

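RNA of 3 compound and 3 DMSO samples was sequenced from poly-A libraries. The labels name a TruSeq kit and call the libraries stranded. Per the submitters' processing notes STAR 2.3.0e, HTSeq 0.6.0 and mm10 were used. The authors deposited raw read counts per gene, which were the input here. Of 24725 rows, 930 repeated identifiers had equal counts and were used 1 time each. Per the file headers the table also holds a normalised signal (deposited count over a size factor; not used) and DESeq2 log2 changes, a Wald score and p-values, used only where the authors' deposited table is named.

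Tests used edgeR 4.0.16 in R 4.3.3 on all genes: the two-sided quasi-likelihood F test after TMM scaling and filterByExpr, with Benjamini-Hochberg adjustment and a threshold of 0.05. SE is the log2 change over the square root of F. The 95% intervals use the test's total degrees of freedom, residual plus prior, and would be wider with the residual ones alone. CPM use TMM library sizes. Count ratios added 0.5 and used exact permutation. Overlaps are from GENCODE M21, where Nup62 was matched by symbol and place. Members and lists were chosen with earlier results of these data known. Named were all members, genes overlapping them and, per list, each called gene and the 2 with most counts. The alternatives were limma-voom (limma 3.58.1), DESeq2 1.42.0, upper-quartile scaling, scaling by DESeq2 size factors, no filter, a filter at a mean count of 50, a replicate block, each library left out and a threshold of 0.01. Ratios and figures used scipy 1.17.1, numpy 2.4.6, pandas 2.3.3 and matplotlib 3.10.9 under Python 3.11.15. The steps were tested on simulated data. Library totals cover the table's genes and are not the sequencing depth.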

Additional observations from a re-analysis of the deposited data

How the results depend on the processing

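Atf5 and Tmem189 stayed called lower under every alternative, and Il4i1 stayed uncalled. The members called were 3 in the reported fit, 2 at a threshold of 0.01 and 2 to 4 with a library left out. With a library left out, 93 to 259 genes were higher, 143 to 359 lower and 1 to 7 listed pathway genes called, against 183, 255 and 5 in the reported fit. At a threshold of 0.01 there were 80 higher, 128 lower and 1 listed gene, and among genes averaging 50 counts or more 3 listed genes were called. Same-numbered libraries of the groups did not deviate together (correlations -0.01 to 0.02, with 2 of 6 libraries closest to their own number). With 3 libraries per group this cannot exclude a pairing, and the labels do not say whether the numbers pair the samples. With the replicate block 197 genes were higher and 245 lower, with 3 members called and Cebpz passing (0.65, adjusted p 0.0289 by edgeR). With no filter on low counts the median log2 change of all genes was -0.15, and none of the 5 members that the filter had left out was called (adjusted p 0.0611 to 0.931). Uncalled genes that changed sign were Maff with no filter (-0.0640) and, with a library left out, Maff (-0.13 to 0.28), Hsp90b1 (-0.34 to 0.0810), Eif2b4 (-0.21 to 0.0675), Nfe2l3 (-0.14 to 0.38) and Vegfa (-0.71 to 0.0352). The difference in the log2 ratio of Fosl1 to Ccdc85b counts, -0.31, ran from -0.90 to 0.60 with a library left out (0.22 without DMSO replicate 3). The cause was not tested. Low counts limit what can be seen under Atf4, Trib3, Cebpb and Nup62.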
